A study of Mus musculus with 31 samples.

Results

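The comparison described here set livers of athyroid mouse pups given triiodothyronine (T3) against livers of pups that kept a thyroid. The T3 group held 6 livers of Dio1KO/Dio2KO/Pax8KO pups injected with T3, and the control group held 5 livers of Dio1KO/Dio2KO/Pax8Het pups injected with vehicle, so 11 of the 31 libraries of the series entered it. The libraries were chosen by the labelled genotype and treatment, not by any measured value. All pups were on the C57Bl/6J strain background, were collected at postnatal day 14 and had been injected every other day from postnatal day 2. The T3 dose and the time between the last injection and collection are not given in the labels used here. The other 20 libraries, all from Dio1KO/Dio2KO/Pax8KO pups, came from 7 given T3 together with thyroxine (T3+T4), 8 given T4 and 5 given vehicle. They are used only to place a gene's level. The control pups also lacked both deiodinases and 1 copy of Pax8, so they were not wild type, and the comparison asks in which liver genes T3 alone left athyroid pups different from control pups with a thyroid of their own.

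Thyroid hormone is secreted mainly as T4, which binds its nuclear receptors less tightly than T3. Type 1 and type 2 deiodinase, the products of Dio1 and Dio2, convert T4 to T3 in the tissues, and type 3 deiodinase, the product of Dio3, inactivates both hormones. Pax8 is a transcription factor needed for the thyroid follicular cells to form, and mice without it are born without a functioning thyroid. In the liver the hormone receptors, chiefly the product of Thrb, control genes of lipid synthesis, mitochondrial oxidation and growth, and Dio1 and Thrsp are classical genes induced by T3.

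Library totals averaged 6070280 ± 481634 counts in T3 livers (SD, n = 6) and 5413170 ± 395846 counts in control livers (SD, n = 5), and they differed between the groups (exact two-sided permutation test over 462 splits, p = 0.0433). Sex-linked genes gave 5 female and 1 male libraries in T3 and 4 female and 1 male libraries in control. The labelled sex of 1 T3 library differed from these genes. Male libraries were 5 of 7 in T3+T4, 6 of 8 in T4 and 3 of 5 in vehicle livers, with 1 differing label in each. Levels set beside those groups therefore also differ in sex make-up. All T3 animals carried numbers from 60 to 68, and of the control animals only 59 was numbered close to them, so a date or litter that follows the numbers cannot be told apart from the treatment. One T3 library, animal 61, stood apart from the others: its root mean square log2 distance from the control mean over 13902 genes was 0.683, against 0.316 to 0.439 in the other 5 T3 livers and 0.230 to 0.327 in the control livers. Hepatocyte markers such as Alb and Apoa1 were present in all T3 and control libraries. Their summed level was 5739 to 7078 CPM (counts after scaling for library size) in T3 livers and 6837 to 7593 CPM in control livers. Alb averaged 517 ± 56.1 CPM in T3 livers and 603 ± 35 CPM in control livers, below Igf1 at 897 and 1169 CPM. An alternative fit assumed a ceiling of 2 counts per exonic base, which would lower the levels and fold changes of abundant genes. Whether the deposited counts have such a ceiling was not tested. The knockout alleles could not be checked by level: Pax8 had 4 to 21 counts in T3 livers and 5 to 7 in control livers, where 1 had been added to each count, and Dio1 and Dio2 were knocked out in both groups. The labels give 1 animal per library and no litter, so p-values measure the spread between animals.

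In T3 against control livers few genes passed the threshold, and their number is no measure of how many genes differed. Of 17057 genes tested, 36 passed an adjusted p of 0.05 in edgeR's quasi-likelihood test (0.211%), 29 of them higher in T3 livers (0.17%) and 7 lower (0.041%). Among the genes that rose were Dlk1, Gucy2c, Slc41a2, Cxcr2 and the receptors Lilrb4 and Gp49a, and among those that fell were Angptl2, Sprn, Lsamp and Epha3. An absolute log2 fold change of 1 or more was reached by 21 of the higher and 3 of the lower genes. The median log2 fold change over all genes was 0.004 and the median size of a change was 0.13. For 14485 genes (84.9%) the whole 95% interval of the difference lay within a 2-fold change in either direction. An unadjusted p under 0.05 was found for 2962 genes (17.4%), 1573 higher (9.22%) and 1389 lower (8.14%). A share of 0.05 would be found if no gene differed, so more genes may differ than were called. DESeq2 called 338 genes (1.98%), 252 higher and 86 lower, and these included all 36. In the same edgeR fit 1642 genes (9.63%) passed in vehicle-treated athyroid livers against control livers, 1155 (6.77%) in T3 against vehicle livers, 604 (3.54%) in T4 against control livers, and 0 (0%) in T3+T4 against control livers, where 1226 had an unadjusted p under 0.05 and DESeq2 called 50. These comparisons share libraries, so their counts are not independent of each other.

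In 34 of the 36 genes no T3 library overlapped a control library in CPM. Over all genes tested, 381 (2.23%) had no overlap, and since the call itself favours such genes nothing is read from that count. Leaving out 1 library at a time gave between 8 and 267 called genes. Leaving out control animal 49, 42 or 50 or T3 animal 61 or 64 lowered the count to 8, 13, 16, 15 or 19 in that order, and leaving out T3 animal 60, 65 or 62 raised it to 67, 114 or 267. The 8 genes called in each of these 11 fits were Dlk1, Gucy2c, Gp49a, Sirpb1b, Lilrb4 and Alox5ap, which were higher in T3 livers, and Angptl2 and Epha3, which were lower. The count was 11 in a fit of the T3 and control libraries alone and 9 with log2 library total as a covariate. Of the 8 genes, Epha3, Lilrb4 and Alox5ap were not called in the fit of these libraries alone. Sirpb1b was not called with the covariate or when a mean of at least 5 CPM was required. The count was 1, for Gucy2c, without the libraries with raised acinar or muscle markers. Those were 3 of the 11 T3 and control libraries and others in each remaining group. A fit with animal 59 as the only control also left out some vehicle and T4 libraries. Its log2 fold change was 2.34 for Dlk1 and -1.26 for Angptl2. These are effect sizes only, because 1 control library measures no spread between control animals.

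**Figure D1:**
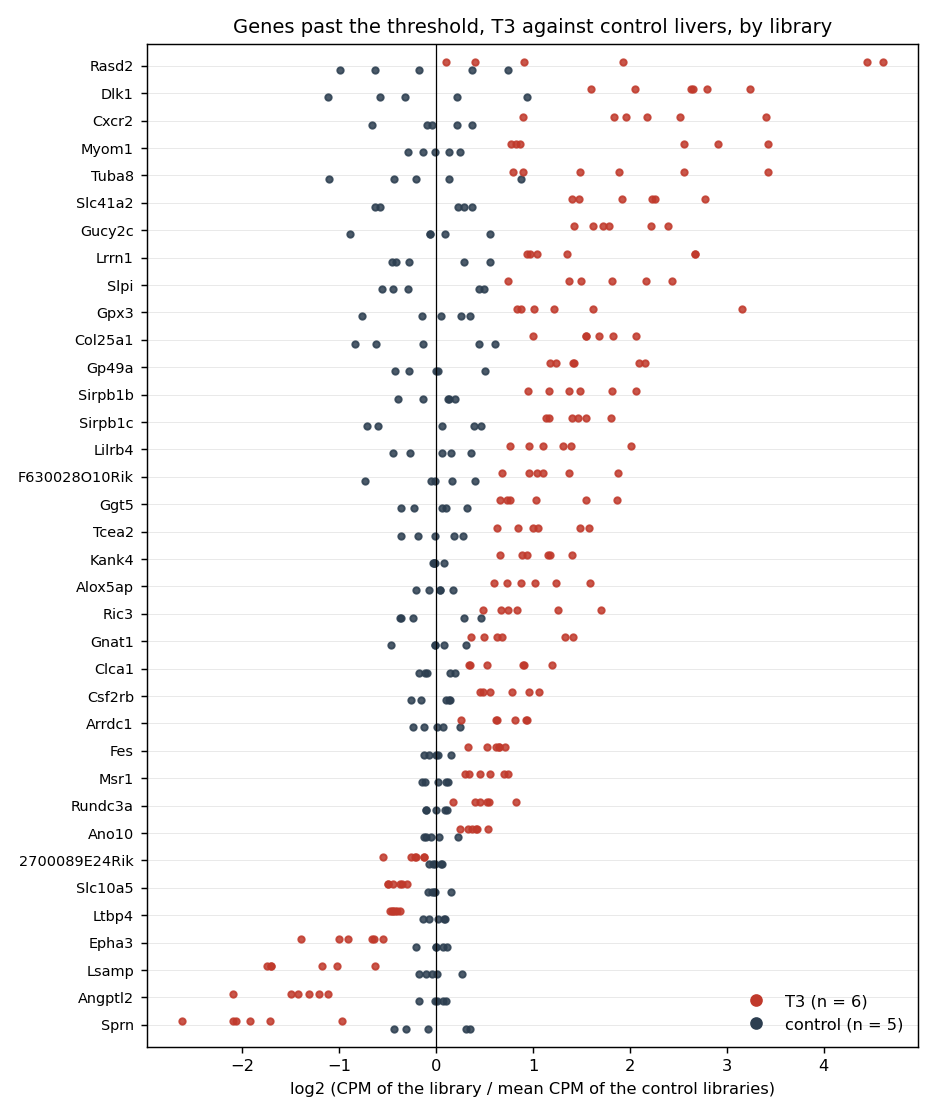
Level of each of the 36 called genes in every T3 library (n = 6) and control library (n = 5), as log2 of the library's CPM over the mean CPM of the control libraries. The 29 genes higher in T3 livers lie above the 7 lower ones, and in 34 genes the points of the 2 groups do not overlap.

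The fall that was both large and steady was in Angptl2 (ENSMUSG00000004105, chr2:33216069-33247717, plus strand, mm10), which encodes a secreted angiopoietin-like protein. Angptl2 had 19.6 CPM in the lowest, 32.5 CPM at the median and 38.8 CPM in the highest T3 liver, against 87.7, 84.1, 83.1, 89.6 and 74.1 CPM in control livers. All 6 T3 livers were therefore below all 5 control livers, with a wide gap between the groups. The log2 fold change of Angptl2 was -1.41 ± 0.24 (SE), a 2.65-fold lower level (edgeR adjusted p = 0.00593). Its level was 43.3 ± 17.9 CPM in T3+T4 livers (SD, n = 7), 30.5 ± 12.7 CPM in T4 livers (n = 8) and 19.2 ± 3.48 CPM in vehicle livers (n = 5). The T3 livers did not differ from the vehicle livers past the threshold (log2 fold change 0.72, edgeR adjusted p = 0.0845).

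Epha3 (ENSMUSG00000052504, chr16:63543534-63864175, minus strand, mm10), a receptor tyrosine kinase for ephrin ligands on neighbouring cells, fell by less but with little spread. Epha3 had 4.85 CPM in the lowest, 7.41 CPM at the median and 8.7 CPM in the highest T3 liver, against 11, 12.7, 13.4, 13.8 and 12.8 CPM in control livers. No T3 liver reached the lowest control liver. Its log2 fold change was -0.83 ± 0.14 (1.78-fold lower, edgeR adjusted p = 0.00692). The T3 mean of 7.15 ± 1.44 CPM (n = 6) lay beside 7.23 ± 1.57 CPM in vehicle livers (n = 5), and the log2 difference of T3 from vehicle was -0.01 (edgeR adjusted p = 0.994). T3+T4 livers averaged 9.15 ± 1.22 CPM (n = 7).

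The 250 bases before the RefSeq start of both genes (GRCm38.p6, 5′ to 3′ on the gene's strand) are shown because these are the lower genes that were called in every fit that left out a library. AGGTCA, the half-site to which thyroid hormone receptors and several other nuclear receptors bind, was searched on both strands, and capitals would mark it. Neither stretch holds it, which says only that these letters are not in this window.
Angptl2, chr2:33215711-33215960, plus strand: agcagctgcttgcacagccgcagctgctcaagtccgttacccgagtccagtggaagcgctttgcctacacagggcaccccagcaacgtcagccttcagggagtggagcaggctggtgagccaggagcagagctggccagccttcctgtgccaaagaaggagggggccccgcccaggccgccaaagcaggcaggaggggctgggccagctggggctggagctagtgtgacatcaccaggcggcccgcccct
Epha3, chr16:63864176-63864425, minus strand: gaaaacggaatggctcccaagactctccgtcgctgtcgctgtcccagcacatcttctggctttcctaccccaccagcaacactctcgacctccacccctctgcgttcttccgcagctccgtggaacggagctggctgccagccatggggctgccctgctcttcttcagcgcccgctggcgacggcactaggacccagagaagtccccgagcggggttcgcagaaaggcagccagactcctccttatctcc

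The remaining lower genes were Sprn, Lsamp, Ltbp4, Slc10a5 and 2700089E24Rik. Sprn (chromosome 7), which encodes the prion-related protein Shadoo, had 2.27 CPM in the lowest, 3.53 CPM at the median and 7.16 CPM in the highest T3 liver, against 17.8, 13.2, 17.4, 10.3 and 11.2 CPM in control livers. The groups did not overlap, and Sprn had the strongest fall of the 7 genes by size (log2 fold change -1.80 ± 0.37, 3.48-fold lower, edgeR adjusted p = 0.0257). The call was lost without control animal 42 or 49 or without T3 animal 61 or 64. Sprn averaged 4 ± 1.68 CPM in T3 livers (n = 6) and 2.79 ± 1.19 CPM in vehicle livers (n = 5), a difference that did not pass (edgeR adjusted p = 0.51). Lsamp, which encodes a neuronal cell adhesion molecule, was low in all groups, with 1.63 ± 0.547 CPM in T3 livers and 3.93 ± 0.486 CPM in control livers (log2 fold change -1.25 ± 0.27, edgeR adjusted p = 0.0411), and it lost its call in 8 of the 11 fits that left out a library.

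Ltbp4 and Slc10a5 fell by smaller amounts from much higher levels. Ltbp4, whose product binds latent transforming growth factor beta in the extracellular matrix, had 108 CPM in the lowest, 111 CPM at the median and 115 CPM in the highest T3 liver, against 151, 159, 141, 136 and 158 CPM in control livers. Its log2 fold change was -0.43 ± 0.09 (edgeR adjusted p = 0.0271). Here the T3 mean of 111 ± 2.82 CPM also stood above the vehicle mean of 84.2 ± 10.9 CPM (log2 fold change 0.40, edgeR adjusted p = 0.00842), so Ltbp4 in T3 livers differed from both groups. Slc10a5, a member of the bile acid transporter family, had 187 ± 10.4 CPM in T3 livers and 247 ± 16.2 CPM in control livers. For Slc10a5 the log2 fold change was -0.41 ± 0.08 (edgeR adjusted p = 0.0271). The clone-named gene 2700089E24Rik differed least, with 203 ± 20.7 CPM in T3 livers and 240 ± 9.29 CPM in control livers (log2 fold change -0.24 ± 0.05, edgeR adjusted p = 0.0494). Leaving out control animal 42 or 49 or T3 animal 61 or 64 ended the call of each of these 3 genes. Ltbp4 also lost its call without control animal 47 or 59, and Slc10a5 without control animal 50 or 59. Among the fits that left out 1 library, 2700089E24Rik kept its call only without T3 animal 62 or 65.

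Dlk1 (ENSMUSG00000040856, chr12:109452823-109463336, plus strand, mm10) was the member of the list of fetal and neonatal liver genes that rose. Its product, a membrane protein related to Notch ligands, marks hepatoblasts in the fetal liver, and the gene is imprinted and declines after birth. Dlk1 had 16.9 CPM in the lowest, 34.8 CPM at the median and 52.6 CPM in the highest T3 liver, against 2.57, 10.7, 3.75, 4.46 and 6.48 CPM in control livers. The lowest T3 liver, animal 61, was above the highest control liver, animal 47. The log2 fold change was 2.56 ± 0.43, a 5.92-fold higher level (edgeR adjusted p = 0.00593). Dlk1 averaged 33.5 ± 12.5 CPM in T3 livers (n = 6), 29.3 ± 10.9 CPM in T3+T4 livers (n = 7), 57.5 ± 25.1 CPM in T4 livers (n = 8), 58.1 ± 15.7 CPM in vehicle livers (n = 5) and 5.58 ± 3.17 CPM in control livers (n = 5). The T3 and T3+T4 means were below those of T4 and vehicle livers, and the difference of T3 from vehicle did not pass (log2 fold change -0.79, edgeR adjusted p = 0.172). The log2 fold change of T3+T4 against control livers was 2.37 (edgeR adjusted p = 0.0714).

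The stretch before the RefSeq start of Dlk1 is shown because this gene had the highest fold change of those called in every fit that left out a library. AGGTCA was not in it on either strand.
Dlk1, chr12:109452573-109452822, plus strand: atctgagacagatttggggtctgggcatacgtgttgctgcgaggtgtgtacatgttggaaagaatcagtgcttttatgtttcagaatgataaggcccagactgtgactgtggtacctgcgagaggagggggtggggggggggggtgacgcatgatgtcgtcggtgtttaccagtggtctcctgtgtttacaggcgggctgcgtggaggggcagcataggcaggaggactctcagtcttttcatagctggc

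Dlk1 lies in 1 imprinted cluster on chromosome 12 with Meg3, Rian and Mirg, noncoding RNAs made from the maternal copy, and with Dio3, so their levels were set beside it after the value of Dlk1 was seen. Meg3 had 45.7 ± 18.5 CPM in T3 livers and 30.4 ± 15.5 CPM in control livers. The ranges overlapped, and for Meg3 the log2 fold change was 0.59 (95% interval -0.02 to 1.20, edgeR adjusted p = 0.304). Rian had 40.8 ± 25.1 CPM in T3 livers and 21.8 ± 7.72 CPM in control livers. For Rian the log2 fold change was 0.91 (95% interval 0.24 to 1.58, edgeR adjusted p = 0.164). Mirg, at 2.63 ± 1.64 CPM in T3 livers and 0.855 ± 0.332 CPM in control livers, had a log2 fold change of 1.59 (95% interval 0.79 to 2.39, edgeR adjusted p = 0.0687). None of these passed, and animals 64 and 60 had the highest level of Meg3, Rian, Mirg and Dlk1 among T3 livers. Without animals 60 and 64 the log2 fold changes were 0.21 for Meg3, 0.23 for Rian and 0.90 for Mirg (edgeR adjusted p = 0.791, 0.744 and 0.268). Dio3, at the far end of the cluster, had 4.98 ± 2.31 CPM in T3 livers, 14.6 ± 3.74 CPM in vehicle livers and 5.64 ± 2.53 CPM in control livers. For Dio3 in T3 against control livers the log2 fold change was -0.19 (95% interval -0.99 to 0.62, edgeR adjusted p = 0.842). Its antisense transcript Dio3os was near it, with 20.7 ± 11 CPM in T3 livers and 19.2 ± 8.99 CPM in control livers, and because use of strand in the counting is not stated the reads of this pair cannot be told apart.

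Among the 14 tested genes of the fetal and neonatal list, Dlk1 was the 1 that rose (higher calls over all genes, 0.17%), and none fell. The median log2 fold change of the list was 0.17. The imprinted growth genes Plagl1 and Peg3 had 74.8 ± 16.3 and 823 ± 195 CPM in T3 livers, against 48.8 ± 8.81 and 532 ± 201 CPM in control livers, and did not pass (edgeR adjusted p = 0.142 and 0.24). Afp, the fetal counterpart of albumin, had 217 ± 58.2 CPM in T3 livers and 195 ± 59.6 CPM in control livers (edgeR adjusted p = 0.78). Igf2 and H19, a neighbouring imprinted pair, had log2 fold changes of -0.65 and -0.35 (edgeR adjusted p = 0.20 and 0.11).

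Gucy2c (ENSMUSG00000042638, chr6:136697284-136781765, minus strand, mm10) encodes the guanylate cyclase receptor for guanylin and uroguanylin, best known from the intestine, and it had the smallest adjusted p of all genes. Gucy2c had 29.2 CPM in the lowest, 36.7 CPM at the median and 57.3 CPM in the highest T3 liver, against 10.5, 16.1, 11.7, 5.88 and 10.5 CPM in control livers. All T3 livers were above all control livers. The log2 fold change was 1.89 ± 0.26, a 3.7-fold higher level (edgeR adjusted p = 0.000818). T3+T4 livers averaged 24.3 ± 6.23 CPM (n = 7), T4 livers 36.7 ± 11.3 CPM (n = 8) and vehicle livers 60.7 ± 14.5 CPM (n = 5), so the vehicle livers were the highest and the T3 mean lay between vehicle and control. The difference of T3 from vehicle was -0.58 on the log2 scale (edgeR adjusted p = 0.13). Gucy2c was the 1 gene still called when the libraries with raised acinar or muscle markers were left out, which kept 4 T3 and 4 control livers.

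**Figure D2:**
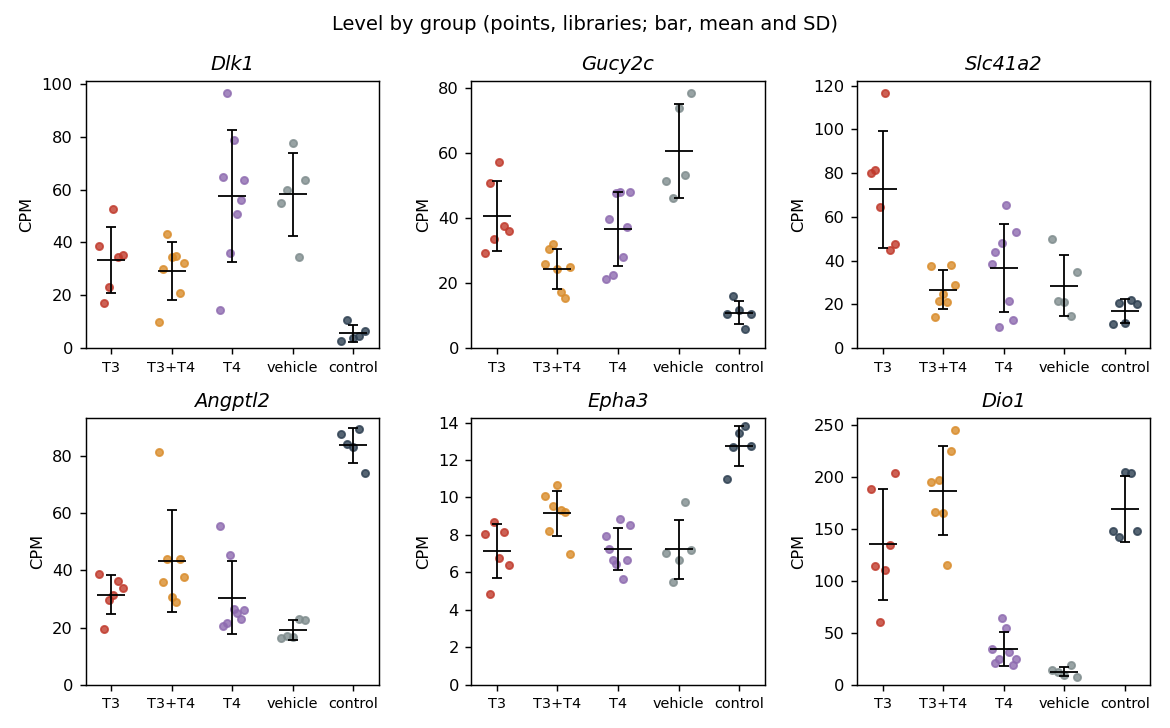
Level in CPM of Dlk1, Gucy2c, Slc41a2, Angptl2, Epha3 and Dio1 in each library of the T3 (n = 6), T3+T4 (n = 7), T4 (n = 8), vehicle (n = 5) and control (n = 5) groups, with bars for the mean and SD. Dlk1 and Gucy2c are higher and Angptl2 and Epha3 lower in all 6 T3 livers than in all 5 control livers, while Dio1 at 135 ± 53.2 CPM in T3 livers overlaps its control level of 169 ± 31.8 CPM.

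Col25a1, Slpi, Gpx3, Ggt5 and Tcea2 also rose. Col25a1, a membrane collagen known mainly from neurons, had 8.51 CPM in the lowest, 13 CPM at the median and 17.7 CPM in the highest T3 liver, against 2.75, 5.75, 2.37, 3.85 and 6.48 CPM in control livers. For Col25a1 the log2 fold change was 1.64 ± 0.33 (edgeR adjusted p = 0.0223). Slpi, a secreted inhibitor of leukocyte proteases, had 9.19 ± 3.64 CPM in T3 livers and 2.7 ± 0.964 CPM in control livers. For Slpi the log2 fold change was 1.76 ± 0.32 (edgeR adjusted p = 0.00929). In both genes every T3 liver was above every control liver. Gpx3, a secreted glutathione peroxidase, had 19.7 CPM in the lowest, 23.9 CPM at the median and 97.9 CPM in the highest T3 liver, against 13.2, 14, 11.5, 9.94 and 6.48 CPM in control livers. The groups did not overlap here either, but the highest Gpx3 value was that of animal 61, and without this animal Gpx3 was no longer called. Its call was also lost without control animal 42, 49, 50 or 59. Ggt5, an enzyme that acts on leukotriene C4, had 9.2 ± 3.45 CPM in T3 livers and 4.07 ± 0.761 CPM in control livers. For Ggt5 the log2 fold change was 1.17 ± 0.23 (edgeR adjusted p = 0.0223). Tcea2, a transcription elongation factor, had 6.9 ± 1.79 CPM in T3 livers and 3.14 ± 0.562 CPM in control livers. For Tcea2 the log2 fold change was 1.13 ± 0.20 (edgeR adjusted p = 0.00883).

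Lilrb4, Gp49a, Sirpb1b, Sirpb1c, Alox5ap, Csf2rb, Fes, Msr1 and Cxcr2 also rose, and they were placed together after their values were seen and form no tested list. Lilrb4 (ENSMUSG00000062593), an inhibitory receptor of myeloid cells, had 15.7 CPM in the lowest, 21.4 CPM at the median and 37.3 CPM in the highest T3 liver, against 6.79, 9.65, 11.8, 7.71 and 10.3 CPM in control livers. No T3 liver overlapped a control liver, and for Lilrb4 the log2 fold change was 1.31 ± 0.22 (2.48-fold higher, edgeR adjusted p = 0.00593). Gp49a (ENSMUSG00000089672), its close paralog, had 8.92 CPM in the lowest, 10.5 CPM at the median and 17.6 CPM in the highest T3 liver, against 2.94, 5.58, 3.95, 3.24 and 4 CPM in control livers. For Gp49a the log2 fold change was 1.63 ± 0.25 (3.09-fold higher, edgeR adjusted p = 0.00445). The lowest T3 value of Gp49a was likewise above its highest control value. The pair is similar enough in sequence that counting could have split their reads, so their separate levels are uncertain, and the same holds for Sirpb1b and Sirpb1c. Sirpb1b had 5.75 ± 1.68 CPM in T3 livers and 2 ± 0.32 CPM in control livers (log2 fold change 1.52 ± 0.27, edgeR adjusted p = 0.007). Sirpb1c had 5.25 ± 0.93 CPM in T3 livers and 1.94 ± 0.688 CPM in control livers. For Sirpb1c the log2 fold change was 1.42 ± 0.28 (edgeR adjusted p = 0.0187).

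Alox5ap, the protein that presents arachidonic acid to 5-lipoxygenase in leukotriene synthesis, had 15.2 CPM in the lowest, 19.4 CPM at the median and 30.2 CPM in the highest T3 liver, against 10.3, 11.3, 8.69, 9.53 and 10.3 CPM in control livers. The groups did not overlap (log2 fold change 1.04 ± 0.18, 2.06-fold higher, edgeR adjusted p = 0.00684). Csf2rb, the shared chain of the receptors for interleukin 3, interleukin 5 and granulocyte-macrophage colony-stimulating factor, had 72.9 ± 13.2 CPM in T3 livers and 43.7 ± 5.5 CPM in control livers (log2 fold change 0.74 ± 0.15, edgeR adjusted p = 0.0271), and it has a close paralog in the mouse genome. Fes, a tyrosine kinase of myeloid cells, had 24.9 ± 2.25 CPM in T3 livers and 16.6 ± 1.23 CPM in control livers. For Fes the log2 fold change was 0.59 ± 0.13 (edgeR adjusted p = 0.0494). Msr1, the class A scavenger receptor of macrophages, had 107 ± 13.8 CPM in T3 livers, 79.1 ± 10.9 CPM in vehicle livers and 74.5 ± 6.31 CPM in control livers, so the T3 mean stood above both (T3 against control, log2 fold change 0.52 ± 0.10, edgeR adjusted p = 0.0189; T3 against vehicle, 0.44, edgeR adjusted p = 0.00995). Without T3 animal 61, or without control animal 42, 49 or 59, Msr1, Csf2rb and Fes were no longer called. Csf2rb also lost its call without control animal 50 or T3 animal 64. Among the fits that left out 1 library, Fes kept its call only without T3 animal 60, 62 or 65.

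Cxcr2 (ENSMUSG00000026180), the chemokine receptor through which neutrophils follow CXC chemokines, had 3.79 CPM in the lowest, 8.56 CPM at the median and 21.5 CPM in the highest T3 liver, against 1.28, 2.37, 1.97, 2.64 and 1.91 CPM in control livers. For Cxcr2 the log2 fold change was 2.32 ± 0.48 (edgeR adjusted p = 0.0258). It was the 1 called gene among the 10 tested granulocyte markers, and it lost its call in 6 of the 11 fits that left out a library. The 10 granulocyte markers had a median log2 fold change of 1.33, and 8 of them, among them Prtn3, Elane, Ngp, Ltf, S100a8 and S100a9, had an unadjusted p under 0.05 with a higher level in T3 livers, against 9.22% of all genes higher at that p and 0.17% called higher. Their summed level was 222.8, 87.1, 190.1, 462, 322 and 127 CPM in T3 animals 60, 61, 62, 64, 65 and 68, against 112, 43.7, 113, 152 and 85.8 CPM in control animals 42, 47, 49, 50 and 59, so the groups overlapped. Among 10 Kupffer cell markers, with a median log2 fold change of 0.18 and a summed level of 1219 to 1501 CPM in T3 livers and 1053 to 1387 CPM in control livers, 0 passed, 2 had an unadjusted p under 0.05 and DESeq2 called 0. In bulk RNA more cells of a type and more RNA per cell cannot be told apart, and the part of blood cell number in these calls was not tested.

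The same 250 bases are shown for Cxcr2 because, of the 21 genes named by size or adjusted p, 11 had a RefSeq promoter entry and Cxcr2 alone held AGGTCA. Its 300-base window holds 2 matches. Capitals mark the one that lies wholly in the stretch shown, which is on the minus strand and so reads TGACCT, with its first letter 208 bases before the start. The other, on the plus strand, runs across the start itself, so its last letter is outside the stretch.
Cxcr2, chr1:74153744-74153993, plus strand: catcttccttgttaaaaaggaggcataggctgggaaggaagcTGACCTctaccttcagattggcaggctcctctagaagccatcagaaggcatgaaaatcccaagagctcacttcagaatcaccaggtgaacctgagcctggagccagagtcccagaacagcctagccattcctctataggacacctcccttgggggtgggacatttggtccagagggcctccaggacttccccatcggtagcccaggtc
Over all 32851 promoter windows of 300 bases, 250 before and 50 after the start, 5340 (16.3%) held AGGTCA on either strand and 5 (0.0152%) held DR4, a direct repeat of AGGTCA spaced by 4 bases, to which thyroid hormone receptors bind with the retinoid X receptor. A window with DR4 also counts among those with AGGTCA. Of the 36 called genes, 22 had an entry, 4 of these held AGGTCA and 0 held DR4.

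Slc41a2, unlike Dlk1 and Gucy2c, had its highest mean in T3 livers and not in vehicle livers. This was not particular to Slc41a2. The T3 mean lay between the control and vehicle means in 9 of the 29 higher genes, and in the rest it was above both. Slc41a2 (ENSMUSG00000034591, chr10:83230848-83337882, minus strand, mm10), a magnesium transporter, had 45.1 CPM in the lowest, 72.4 CPM at the median and 117 CPM in the highest T3 liver, against 11, 20.8, 11.5, 22.1 and 20 CPM in control livers. Each T3 liver was above each control liver (log2 fold change 2.09 ± 0.40, 4.25-fold higher, edgeR adjusted p = 0.0171). The mean was 72.6 ± 26.6 CPM in T3 livers (n = 6), 26.6 ± 8.88 CPM in T3+T4 livers (n = 7), 36.6 ± 20.1 CPM in T4 livers (n = 8), 28.5 ± 14 CPM in vehicle livers (n = 5) and 17.1 ± 5.39 CPM in control livers (n = 5). T3 also stood above vehicle (log2 fold change 1.35, edgeR adjusted p = 0.0295), and vehicle did not differ from control past the threshold (0.74, edgeR adjusted p = 0.265). The T3 to control call was lost without control animal 42 or 49.

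Rasd2, a small GTPase of the Ras family best known from the striatum, had the highest fold change of the called genes and rested on a pair of libraries. Its level was 3.43, 44.8, 6.96, 2.42, 1.97 and 39.9 CPM in T3 animals 60, 61, 62, 64, 65 and 68, against 0.917, 2.37, 1.19, 1.62 and 3.05 CPM in control livers. Animals 61 and 68 were far above the rest, and animals 64 and 65 lay within the control range. The log2 fold change was 3.16 ± 0.65 (edgeR adjusted p = 0.0257), and the call was lost without T3 animal 61 or 68 or control animal 42, 49 or 50. Rundc3a and Ric3, a chaperone of nicotinic acetylcholine receptors, were also higher in T3 livers than in both other groups: Rundc3a had 34.3 ± 5.1 CPM in T3, 27.1 ± 2.22 CPM in vehicle and 24.3 ± 1.79 CPM in control livers. For Rundc3a the log2 fold change was 0.50 ± 0.10 against control (edgeR adjusted p = 0.0171) and 0.34 against vehicle (edgeR adjusted p = 0.0283). Ric3 had 7.67 ± 2.63 CPM in T3, 4.47 ± 0.913 CPM in vehicle and 3.81 ± 1.07 CPM in control livers, with log2 fold changes of 1.00 ± 0.20 and 0.77 (edgeR adjusted p = 0.0257 and 0.0195).

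Myom1, a protein of the M-band of striated muscle, had 14.2, 18.1, 4.26, 26, 4.38 and 4.13 CPM in T3 animals 60, 61, 62, 64, 65 and 68, against 2.39, 2.2, 1.97, 2.64 and 2.86 CPM in control livers. For Myom1 the log2 fold change was 2.29 ± 0.43 (edgeR adjusted p = 0.0145). The highest values of Myom1 came from animals 64, 61 and 60. Skeletal muscle transcripts were present in part of the T3 libraries: the summed level of the muscle markers, among them Acta1, Myh1 and Ckm, was 292, 24.2, 9.48, 439, 30.5 and 6.02 CPM in the same T3 animals, against 2.64 to 4.38 CPM in control livers. Ckm itself was at 1 count, the value added to each gene, in all 5 control livers. Of the 7 muscle markers tested, 7 had an unadjusted p under 0.05, none passed in edgeR and DESeq2 called 6. Without animals 60 and 64 the log2 fold change of Myom1 was 1.67 (edgeR adjusted p = 0.0704) and that of Cxcr2 was 1.78 (edgeR adjusted p = 0.102), while Dlk1 stayed past the threshold (2.28, edgeR adjusted p = 0.0232). In all, 35 genes passed in that fit, 20 of them among the 36. T3 animals 61 and 65, with muscle sums of 24.2 and 30.5 CPM, were still in it. Dlk1 was not called when all libraries with raised acinar or muscle markers were left out, a fit with fewer libraries.

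The other called genes ranged in log2 fold change from 0.39 ± 0.08 for Ano10, a member of the anoctamin family, to 2.14 ± 0.43 for Tuba8, an alpha tubulin. Ano10 had 50.5 ± 3.42 CPM in T3, 61 ± 4.74 CPM in vehicle and 38.6 ± 3.89 CPM in control livers, and the T3 level differed from both (edgeR adjusted p = 0.0286 against control and 0.0367 against vehicle). Tuba8 had 10.3 CPM in the lowest, 19.3 CPM at the median and 63.5 CPM in the highest T3 liver, against 2.75, 10.8, 5.13, 6.49 and 4.38 CPM in control livers, so it was, with Rasd2, 1 of the pair of called genes whose groups overlapped. Kank4 had 8.91 ± 1.62 CPM in T3 livers and a narrow 4.29 ± 0.144 CPM in control livers (log2 fold change 1.05 ± 0.22, edgeR adjusted p = 0.0271). Arrdc1, Clca1, Gnat1 and Lrrn1 had log2 fold changes of 0.71, 0.74, 0.88 and 1.82 (edgeR adjusted p = 0.0302, 0.0271, 0.0257 and 0.0189). F630028O10Rik, annotated as an antisense RNA on chromosome X, had 20.7 ± 6.49 CPM in T3 livers and 8.84 ± 2.31 CPM in control livers (log2 fold change 1.23 ± 0.27, edgeR adjusted p = 0.0442), and its reads cannot be told apart from those of an overlapping gene.

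Among genes that respond to thyroid hormone, none of those described next was called in T3 against control livers. They were named in earlier results of the same libraries, so the values describe them. Dio1 had 60.2 CPM in the lowest, 124 CPM at the median and 203 CPM in the highest T3 liver, with 12.7 ± 4.42 CPM in vehicle livers (n = 5), against 148, 142, 204, 203 and 148 CPM in control livers. All pups carried the Dio1KO label, and where in the gene these counts lie was not examined. Its T3 and control ranges overlapped (log2 fold change -0.32, 95% interval -0.88 to 0.24, edgeR adjusted p = 0.571). The noncoding RNA 9030619P08Rik had 86.4 ± 16.8 CPM in T3 livers, 3.59 ± 2.28 CPM in vehicle livers and 93.7 ± 13 CPM in control livers (T3 against control, log2 fold change -0.12, 95% interval -0.54 to 0.31, edgeR adjusted p = 0.812). Gpd2, the mitochondrial glycerol phosphate dehydrogenase long used as a measure of hormone action, had 229 ± 68.3 CPM in T3 livers, 89.7 ± 61.3 CPM in vehicle livers and 242 ± 69.6 CPM in control livers (T3 against control, -0.08, 95% interval -0.69 to 0.52, edgeR adjusted p = 0.915). In these 3 genes the T3 range overlapped the control range.

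Me1, the cytosolic malic enzyme that makes NADPH for lipid synthesis, had 115 ± 52.7 CPM in T3 livers, 28.4 ± 10.7 CPM in vehicle livers and 74.4 ± 24.7 CPM in control livers (T3 against control, log2 fold change 0.62, 95% interval -0.10 to 1.34, edgeR adjusted p = 0.364). Fasn, the fatty acid synthase, had 136 ± 24.7 CPM in T3 livers and 168 ± 30.9 CPM in control livers. For Fasn the log2 fold change was -0.30 (95% interval -0.69 to 0.09, edgeR adjusted p = 0.417). Bcl3, a nuclear partner of NF-kappa B, was at 39.2 ± 9.92 CPM in T3 livers and 40.1 ± 7.75 CPM in control livers (edgeR adjusted p = 0.958). The intervals bound each difference and do not show that the groups were alike.

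Thrsp and Ntrk2 had low T3 levels with a wide spread. Thrsp, a nuclear protein that promotes lipogenesis, had 1.72 CPM in the lowest, 5.33 CPM at the median and 21.6 CPM in the highest T3 liver, against 73.4, 2.71, 44.8, 26.2 and 24.2 CPM in control livers. A single control liver, animal 47, lay within the T3 range, and the others were above it. The log2 fold change of Thrsp was -2.10 (95% interval -3.53 to -0.67), which did not pass (edgeR adjusted p = 0.134). Ntrk2, the receptor for brain-derived neurotrophic factor, had 4.01 CPM in the lowest, 40.8 CPM at the median and 50.3 CPM in the highest T3 liver, against 228, 25, 147, 149 and 96.2 CPM in control livers. For Ntrk2 the log2 fold change was -2.02 (95% interval -3.21 to -0.83, edgeR adjusted p = 0.0885). Again control animal 47 was the lowest of its group. Col4a3, a basement membrane collagen chain, had 12.8 ± 8.09 CPM in T3 livers and 26.2 ± 19.4 CPM in control livers (edgeR adjusted p = 0.308).

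Serpina7, the thyroxine-binding globulin, had 211 ± 53.6 CPM in T3 livers, 393 ± 55.7 CPM in vehicle livers and 161 ± 57.3 CPM in control livers (T3 against control, log2 fold change 0.39, 95% interval -0.12 to 0.91, edgeR adjusted p = 0.425). Slco1a1, an organic anion transporter, had 15.6 ± 10.1 CPM in T3 livers, 35.4 ± 16.8 CPM in vehicle livers and 8.88 ± 2.43 CPM in control livers (T3 against control, 0.81, 95% interval 0.05 to 1.57, edgeR adjusted p = 0.259). Both genes had T3 means between those of vehicle and control livers. Cyp4a10, a fatty acid omega-hydroxylase controlled by PPAR alpha, had 256 ± 63.8 CPM in T3 livers and 149 ± 58.4 CPM in control livers (0.78, 95% interval 0.22 to 1.34, edgeR adjusted p = 0.154). Its paralog Cyp4a14 had 463 ± 62.2 CPM in T3 livers and 383 ± 43.7 CPM in control livers (edgeR adjusted p = 0.316). Control animal 47 was the highest control liver for both Cyp4a genes. Akr1c18 and Sult5a1, enzymes of steroid and xenobiotic metabolism, had T3 means of 54.5 ± 27.6 and 12.5 ± 7.78 CPM, above their control means of 29.9 ± 18.2 and 4.81 ± 4.42 CPM, with log2 fold changes of 0.87 and 1.39 that did not pass (edgeR adjusted p = 0.243 and 0.169). Gprc5b, an orphan receptor, had 6.57 ± 2.88 CPM in T3 livers, 25.6 ± 11 CPM in vehicle livers and 4.36 ± 1.42 CPM in control livers (T3 against control, 0.59, edgeR adjusted p = 0.368).

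**Figure D3:**
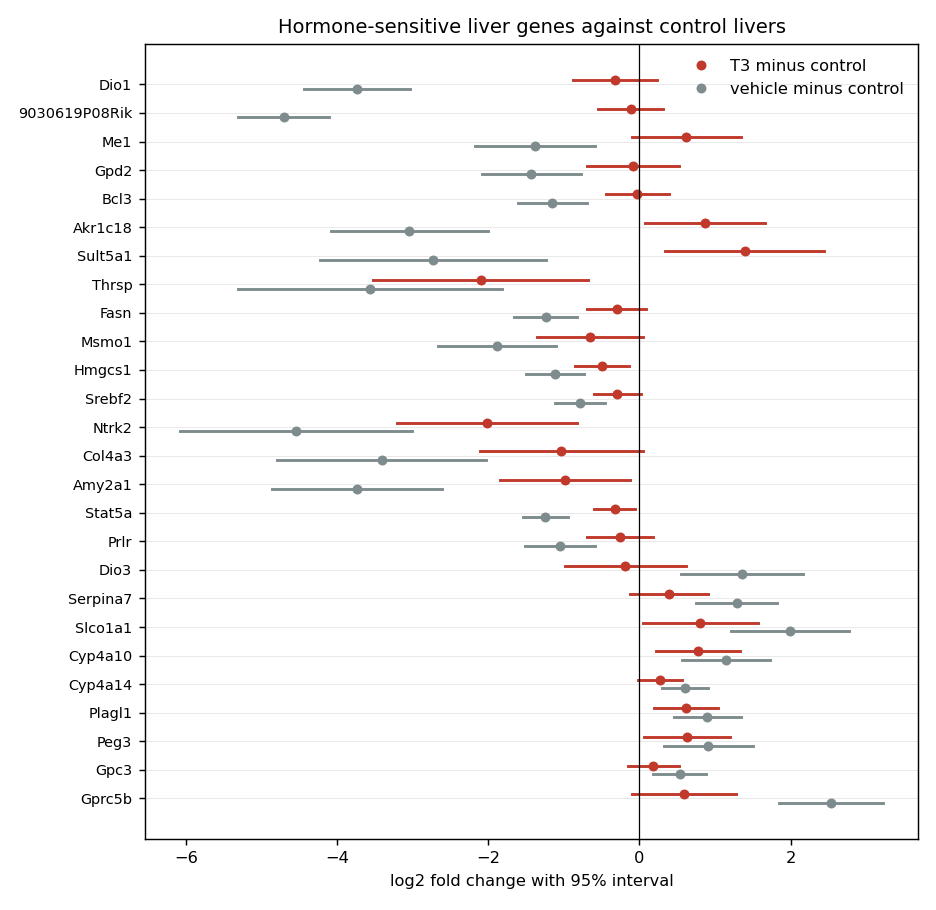
Log2 fold change with its 95% interval for 26 hormone-sensitive genes in T3 against control livers (6 against 5) and in vehicle against control livers (5 against 5), which share the control libraries. None of the genes passed in T3 against control; Dio1 is at -0.32 after T3 and at -3.74 with vehicle, and Thrsp is at -2.10 after T3 with an interval from -3.53 to -0.67.

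The genes that carry, bind and read thyroid hormone had no called member. Of 25 tested members of that list, 0 passed in edgeR, against 0.211% of all genes. An unadjusted p under 0.05 was found for 8 (3 higher and 5 lower), against 17.4% of all genes, and DESeq2 called 1. Thrb, the main hormone receptor of the liver, had 127 ± 24.1 CPM in T3 livers and 138 ± 11.1 CPM in control livers (log2 fold change -0.12 ± 0.12, edgeR adjusted p = 0.63), and Thra, the other receptor, had 53.6 ± 2.12 and 53.4 ± 5.26 CPM in the same groups (edgeR adjusted p = 0.99). The 28 thyroid hormone induced genes had a median log2 fold change of 0.02, with 0 called by edgeR, 4 at an unadjusted p under 0.05 (2 higher and 2 lower) and 0 called by DESeq2. Dio2, knocked out in both groups, had 2.86 ± 0.782 CPM in T3 livers and 3.19 ± 0.588 CPM in control livers.

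Of the 17 pathway lists, 16 had 0 members called in edgeR, and the other was the fetal list with Dlk1. Only 0.211% of all genes were called, so 0 called members in a list of this size says little about that list. Cholesterol synthesis and uptake had a median log2 fold change of -0.38 over its 27 tested genes, against 0.004 over all genes. An unadjusted p under 0.05 was found for 12 of the 27, all lower in T3 livers, against 8.14% of all genes lower at that p, while 0 passed the adjusted threshold and DESeq2 called 0. Hmgcs1, which makes HMG-CoA, had 247 ± 76.8 CPM in T3 livers and 348 ± 71.2 CPM in control livers (log2 fold change -0.49, 95% interval -0.85 to -0.13, edgeR adjusted p = 0.158). The list's summed level was 2110 to 3838 CPM with a median of 2755 CPM in T3 livers, and 2675 to 4539 CPM with a median of 3808 CPM in control livers, so the groups overlapped.

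The 22 cell cycle genes had the lowest median of the pathway lists, a log2 fold change of -0.92. Again 0 passed in edgeR and DESeq2 called 0, and 17 had an unadjusted p under 0.05, all lower in T3 livers, against 8.14% of all genes. Mki67, a marker of cells in cycle, had 109 ± 67 CPM in T3 livers and 234 ± 31.1 CPM in control livers. For Mki67 the log2 fold change was -1.10 ± 0.40 (edgeR adjusted p = 0.16). The summed level was 917, 194, 711, 618, 1305 and 696 CPM in T3 animals 60, 61, 62, 64, 65 and 68, against 944, 1193, 1298, 1451 and 1188 CPM in control animals 42, 47, 49, 50 and 59. Animal 61 was the lowest, and animal 65 lay within the control range.

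Genes of the growth hormone and insulin-like growth factor axis had a median log2 fold change of -0.15 over 15 genes, with 0 called by edgeR, 4 at an unadjusted p under 0.05 and 0 called by DESeq2. Over all genes, 17.4% were at that unadjusted p and 0.211% were called. Igf1, the hepatic growth factor made under growth hormone, had 897 ± 295 CPM in T3 livers and 1169 ± 149 CPM in control livers (log2 fold change -0.38 ± 0.18, edgeR adjusted p = 0.28), and Ghr, the growth hormone receptor, had 422 ± 110 and 578 ± 63.2 CPM in the same groups (-0.45 ± 0.15, edgeR adjusted p = 0.13). De novo lipogenesis had 23 tested genes with a median of -0.16, 0 called by edgeR, 9 at an unadjusted p under 0.05 and 1 called by DESeq2. Acacb, the mitochondrial acetyl-CoA carboxylase, averaged 51 ± 60.7 CPM in T3 livers and 11.9 ± 4.54 CPM in control livers (log2 fold change 2.10, edgeR adjusted p = 0.078). Mitochondrial respiration had 26 tested genes with a median of -0.06, and 0 of them reached even an unadjusted p under 0.05 or a DESeq2 call.

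Genes of the liver's fuel supply had no called member either, where 0.211% of all genes were called and 17.4% had an unadjusted p under 0.05. The 28 genes of fatty acid oxidation and ketogenesis had a median of -0.07 with 0 called by edgeR and 1 called by DESeq2. An unadjusted p under 0.05 was found for 10, of which 3 were higher and 7 lower. Ppara, among the lower ones, had a log2 fold change of -0.38 (edgeR adjusted p = 0.083). Cpt1a, the gate of fatty acid entry into mitochondria, had 588 ± 61.3 CPM in T3 livers and 599 ± 23.2 CPM in control livers (edgeR adjusted p = 0.91). The 20 genes of gluconeogenesis and glucose handling had a median of -0.09 with 0 called by edgeR, 6 at an unadjusted p under 0.05 (1 higher and 5 lower) and 1 called by DESeq2. Pygl and Pklr, among the lower ones, had log2 fold changes of -0.32 and -0.54 (edgeR adjusted p = 0.086 and 0.11). Pck1, the first committed enzyme of gluconeogenesis, had 691 ± 64.9 CPM in T3 livers and 674 ± 60.9 CPM in control livers (edgeR adjusted p = 0.87). Ppargc1a, a coactivator of mitochondrial and gluconeogenic genes, averaged 143 ± 125 CPM in T3 livers and 63.9 ± 13.4 CPM in control livers. For Ppargc1a the log2 fold change was 1.16 ± 0.36 (edgeR adjusted p = 0.11). Cyp7a1, the rate-limiting enzyme of bile acid synthesis, had 252 ± 76 CPM in T3 livers and 251 ± 75.4 CPM in control livers (edgeR adjusted p = 0.99), and none of the 22 bile acid genes passed (7 at an unadjusted p under 0.05, DESeq2 0).

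The 6 other pathway lists, of the clock, the acute phase, the urea cycle, drug metabolism, stress and immediate early genes, had medians from -0.07 to 0.24, with 0 called by edgeR in each, 0 called by DESeq2 in the first 4 and 1 in each of the last 2. Asns, the asparagine synthetase of the amino acid response, averaged 79.8 ± 28.7 CPM in T3 livers and 31.4 ± 13.9 CPM in control livers (log2 fold change 1.34, edgeR adjusted p = 0.072). Hspb1, a small heat shock protein, averaged 3.49 ± 1.51 CPM in T3 livers and 1.28 ± 0.671 CPM in control livers (1.43, edgeR adjusted p = 0.065).

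**Figure D4:**
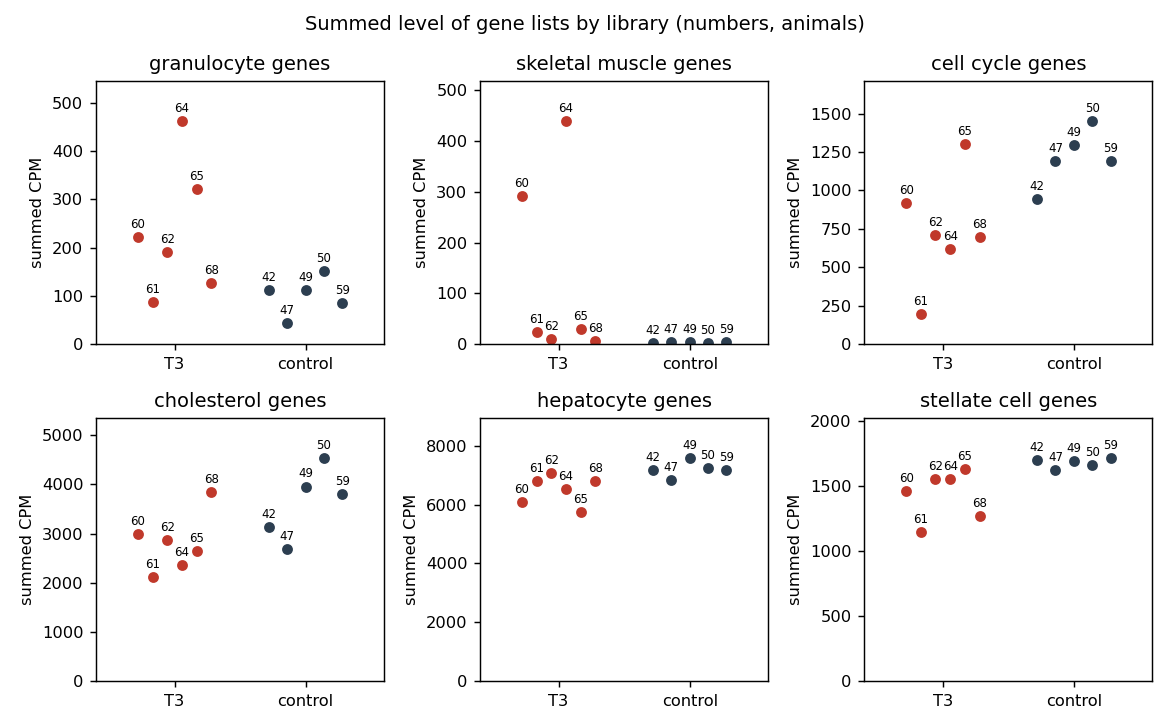
Summed CPM of 6 gene lists in each T3 library (n = 6) and control library (n = 5), with animal numbers beside the points. Muscle genes reach 292 and 439 CPM in T3 animals 60 and 64 against at most 4.38 CPM in control livers, cell cycle genes are lowest at 194 CPM in T3 animal 61, and the stellate cell sum is 1145 to 1628 CPM in T3 livers against 1622 to 1717 CPM in control livers.

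Hepatocyte markers had a median log2 fold change of -0.15 with 0 of 10 called by edgeR, 6 at an unadjusted p under 0.05, all lower, and 0 called by DESeq2. Over all genes, 17.4% had an unadjusted p under 0.05, and 8.14% had it with a lower level. Stellate cell markers had a median of -0.10 with 0 of 12 called by edgeR, 5 at an unadjusted p under 0.05 (1 higher and 4 lower) and 1 called by DESeq2. Lrat, the enzyme with which stellate cells store vitamin A, averaged 108 ± 28.7 CPM in T3 livers and 165 ± 12 CPM in control livers. For Lrat the log2 fold change was -0.61 (edgeR adjusted p = 0.089). Pancreatic acinar markers had the lowest median of all lists, -3.24 over 9 tested genes, with 0 called by edgeR, 6 at an unadjusted p under 0.05 and 1 called by DESeq2. Their defining members Cpa1, Ctrb1 and Cel averaged 0.166 ± 0.0162, 0.33 ± 0.283 and 0.191 ± 0.0546 CPM in T3 livers, against 1.72 ± 3.2, 3.79 ± 6.9 and 4.77 ± 9.92 CPM in control livers. In control livers the mean acinar level without Cela1 and Amy2a5 was 8.68 CPM in animal 47 and 0.404 to 0.731 CPM in the other 4. Erythroid, lymphocyte, endothelial and cholangiocyte markers and the sex-linked genes had medians from -0.27 to 0.31, with 0 called by edgeR, 7 at an unadjusted p under 0.05 in all and 1 lymphocyte gene called by DESeq2. Apart from granulocyte markers with Cxcr2, none of the 11 marker lists had a called member, where 0.211% of all genes were called.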

How the data were processed

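Liver RNA was sequenced from poly(A) stranded libraries, per the labels' protocols. The authors deposited whole-number counts per gene for 43629 genes. The lowest value in each column is 1, so 1 had been added to every count, and 50.1% of the values are 1. The submitters' processing notes list BWA 0.7.10, bcl2fastq, DESeq and Trimmomatic, with a human build (GRCh38), whereas column names state mm10. The counting tool, its use of strand and the annotation are not given in the sources used here. Positions came from GENCODE M21 (mm10), which holds 42462 of the gene IDs (97.3%), and promoters from RefSeq (GRCm38.p6).

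After TMM scaling and filterByExpr, the deposited counts of 17057 genes entered edgeR's quasi-likelihood test (glmQLFTest, edgeR 4.0.16 in R 4.3.3). The fit used all 31 libraries, each of the 5 groups had its own mean, and p-values were adjusted by Benjamini-Hochberg at 0.05. Log2 fold changes carry their SE, and CPM levels their SD. The code was tested on simulated data. DESeq2 1.42.0 was an alternative. Named genes were all called genes, with motifs searched in those with a mean of at least 5 CPM and no overlap between groups that ranked among the 12 largest rises or falls, or among the 6 smallest adjusted p of 3 patterns across comparisons, as well as Pax8, Dio1, Dio2 and Dio3. The 28 lists (452 genes) came from textbook knowledge. Members, lists and hormone-sensitive genes were chosen with earlier results of these data known. The imprinted neighbours of Dlk1 were added after its value was seen.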

Additional observations from a re-analysis of the deposited data

Results flagged for a closer look

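The T3 and control values of each named gene, 146 groups of values in all, were searched for a single library far from the others of its group, by the gap to the nearest library over the group's range (critical value 0.625 for 6 libraries and 0.71 for 5). By chance about 1 in 20 groups would be found, and 12 were. In T3 animal 61, the library farthest from the control mean, Amy2a1 was at 39.1 CPM (other T3 livers 4.06 to 14 CPM), Gpx3 at 97.9 CPM (19.7 to 33.9 CPM), Slco1a1 at 34.6 CPM (7.57 to 16.9 CPM) and 2700089E24Rik at 164 CPM (200.2 to 220.6 CPM). In T3 animal 68, Gpc3 was at 284 CPM (162 to 204 CPM). In control animal 47, Cyp4a10 was at 253 CPM (other control livers 110.3 to 129 CPM), Cyp4a14 at 458 CPM (344 to 375 CPM) and Slc4a9 at 7.62 CPM (0.79 to 2.29 CPM). In control animal 49, Slc10a5 was at 275 CPM (234 to 246 CPM) and Kank4 at 4.54 CPM (4.19 to 4.26 CPM). In control animal 42, Meg3 was at 58 CPM (22.5 to 24.9 CPM) and Rian at 35.4 CPM (16.4 to 19.5 CPM). Gpx3, 2700089E24Rik, Slc10a5 and Kank4 are among the 36 called genes. Of these, Gpx3 and 2700089E24Rik were not called without animal 61, and Slc10a5 and Kank4 were not called without animal 49. Each of these genes also lost its call without other single animals.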

How the results depend on the processing

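The count of 36 called genes was within 1.5 times under other normalization factors, either filter, a sex covariate, subtraction of the added 1, a correction for a ceiling of counts, without the animal whose labelled sex differed, and without animals 60 and 64 (29 to 44 genes). It was 11 with the T3 and control libraries alone, 9 with log2 library total as a covariate, 338 with DESeq2, 0 with control animal 59 alone as the control, and 1 without libraries with raised acinar or muscle markers, an alternative chosen after seeing the data, as was leaving out animals 60 and 64. With control animal 59 alone as the control, lower-numbered vehicle and T4 animals were left out too. There 1 control library is assumed to vary like the other groups. The log2 fold changes in that fit were 2.34 for Dlk1, 1.93 for Gucy2c, -1.26 for Angptl2 and -0.86 for Epha3. Without 1 library each the count ran from 8 to 267. With fewer libraries fewer genes can pass; the cause of the other shifts was not tested. Counting Cela1 and Amy2a5 among the acinar markers left no control library, so that alternative could not be fitted. No paired analysis was possible because the groups share no animal number. The animal whose labelled sex differed was T3 animal 68, so that fit is the same as leaving out animal 68 alone. It enters the counts below under both names. Vehicle, T4 and T3+T4 libraries with a differing label stayed in it. Over single genes and lists, 2092 of the values under alternatives stayed on the same side of the threshold in the same direction, 308 were no longer past it, 5 were newly past it and 39 list counts moved by more than 1.5 times. The other 20 changed sign, in 5 genes that were called neither in the values reported nor under that alternative. With animal 59 alone as control the log2 fold change was 0.293 for Gpd2, 0.087 for Bcl3 and -0.0761 for Dio3os. Without the libraries with raised markers it was 0.0228 for Dio3 and -0.155 for Csrp3. Without animals 60 and 64 it was -0.0358 for Csrp3, without the animal whose labelled sex differed 0.0706 for Bcl3, and with log2 library total -0.0205 for Dio3os. Without 1 library each the log2 fold change ran from -0.192 to 0.0826 for Gpd2, from -0.125 to 0.0706 for Bcl3, from -0.158 to 0.338 for Dio3os and from -0.0414 to 0.369 for Csrp3.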
